A study of Mus musculus with 8 samples.

Results

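Conventional dendritic cells take up antigen in a tumor and present it on MHC molecules to T cells. They fall into cDC1, which carry the receptors XCR1 and CLEC9A and are known for passing antigen of dead cells to CD8 T cells, and cDC2, which carry lectins such as CD209a and present mainly to CD4 T cells. Cells that have taken up a maturation signal gain the chemokine receptor CCR7 and leave for the lymph node, so cells without Ccr7 RNA stand for those that have not, as far as a droplet assay can tell. The cells described here were chosen by detected genes, where detected means at least 1 unique molecular identifier (UMI, a tag counted once per RNA molecule). A cell passed the gate when it had at least 2 of the 6 dendritic genes Flt3, Cd209a, Zbtb46, Xcr1, Clec9a and H2-DMb2, had H2-Aa, and had no UMI of Ccr7, of Cd3d, Cd3e or Cd3g, or of C1qa, C1qb or C1qc. The gate kept 115 of 29496 cells, 53 of them from Atg7-deleted hosts and 62 from Atg7 wild-type hosts.

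The cells came from tumors of MB49, a male mouse urothelial cancer line, grown under the skin of C57BL/6 mice. Deleted hosts were UbcreERT2/+;Atg7f/f and wild-type hosts UbcreERT2/+;Atg7+/+, so both carried the Cre transgene, which a ubiquitin promoter drives in cells of all tissues. Both were given tamoxifen (TAM), which activates this Cre, on each of 4 days, and MB49 cells were placed in both flanks 1 week later, for 2 tumors in each mouse. Tumors were taken 3 weeks after that, dissociated, spun through a density gradient and run with a 10x Genomics 5′ kit. The injected tumor cells bring their own Atg7, so the genotype is that of the host. Libraries keep the numbers of their labels, 3, 4, 7 and 8 for deleted hosts and 1, 2, 5 and 6 for wild-type hosts. Nothing in the labels ties tumors to mice, so tumors of 1 mouse may be in the set and p-values then measure a spread that is partly technical.

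Libraries ran from 4371773 UMIs in deleted library 7 to 59235799 UMIs in wild-type library 6. The median UMIs of all cells averaged 2888 ± 1021 in deleted libraries and 7268 ± 1326 in wild-type libraries (SD, n = 4 each; two-sided exact permutation p = 0.0286, the smallest that 4 against 4 libraries allow). Among gated cells these medians averaged 8086 ± 2978 in deleted libraries and 11309 ± 2031 in wild-type libraries (exact permutation p = 0.143). By their cell barcodes libraries 5 to 8 form a set, in which each pair shared 7 to 46 barcodes, or 0.726 to 1.24% of the smaller library. Pairs among libraries 1 to 4 shared 0 to 5 barcodes, and pairs across the sets shared 0 or 1, so that libraries 1 to 4 are a set only in lying apart from the others. None of the 115 gated barcodes occurred in another library. Deleted libraries held 13, 4, 16 and 20 gated cells (3, 4, 7 and 8) and wild-type libraries held 3, 4, 25 and 30 (1, 2, 5 and 6). These numbers limit every comparison below.

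The gate genes are given as levels, in UMIs per 10000 UMIs of a cell averaged over the gated cells of a library, and without a test, since they chose the cells. H2-Aa, the alpha chain of an MHC class II molecule, stood at 116, 58.4, 85.6 and 94.2 in deleted libraries and at 57.5, 58.9, 44.3 and 62.0 in wild-type libraries. Flt3, the receptor for the growth factor that dendritic cells depend on, stood at 4.16, 3.16, 1.82 and 2.73 in deleted libraries and at 2.54, 1.39, 1.24 and 0.309 in wild-type libraries. Clec9a, a cDC1 receptor for dead cells, stood at 3.45, 0.618, 1.35 and 2.34 in deleted libraries and at 1.22, 0.468, 1.33 and 0.337 in wild-type libraries. Deleted library 3 was the highest for all of these, and the genotypes overlapped for H2-Aa, Flt3 and Clec9a alike. Xcr1, the chemokine receptor of cDC1, was at 6.02, 0, 1.35 and 1.22 in deleted libraries and at 0, 2.69, 0.839 and 0.134 in wild-type libraries. Cd209a, a lectin of cDC2, was at 1.77, 2.43, 1.44 and 1.59 in deleted libraries and at 3.03, 2.04, 1.36 and 4.97 in wild-type libraries. The groups overlapped for Xcr1 and Cd209a as well. Zbtb46, a transcription factor of the conventional lineage, lay between 0.262 and 0.831 in deleted libraries and between 0 and 0.404 in wild-type libraries. H2-DMb2, part of the machinery that loads peptide on class II, lay between 0.578 and 1.49 in deleted libraries and between 0.752 and 1.89 in wild-type libraries. Flt3 was detected in 75 of the 115 cells, H2-DMb2 in 74, Clec9a in 45, Cd209a in 36, Xcr1 in 32 and Zbtb46 in 22.

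Most gated cells sat on the threshold. Exactly 2 of the 6 genes were detected in 77 cells, 24 from deleted and 53 from wild-type hosts, and 3 or more in 38 cells, 29 from deleted and 9 from wild-type hosts. Just outside the gate, 1156 cells had 1 of the 6 genes and met every other condition. Krt8, a keratin of epithelial cells, had a UMI in 87.6% of those 1156 cells, in 40.3% of the cells with exactly 2 genes and in 7.89% of the cells with 3 or more. Ptprc, which encodes the leukocyte surface protein CD45, ran the other way, with a UMI in 12.5%, 46.8% and 78.9% of the cells in the same order. Cst3, a protease inhibitor abundant in dendritic cells, was at higher levels along that order, at 13.9, 53.6 and 175 UMIs per 10000. These are descriptions of cells chosen by the number of genes, with no test.

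The label of conventional dendritic cells therefore did not hold for the whole gate. Of the 5 tumor-cell genes Krt8, Krt18, Krt19, Msln and Wfdc2, at least 2 were detected in 34 gated cells, 1 of 53 from deleted hosts and 33 of 62 from wild-type hosts. The 33 wild-type cells were spread over libraries 1, 2, 5 and 6 as 2, 2, 15 and 14. In these 34 cells the mean level of H2-Aa was 16.5, against 96.5 UMIs per 10000 in the other 81. Cd74, the class II invariant chain, averaged 28.4 in the 34 cells and 160 in the 81 cells. Cst3 averaged 14.1 and 129, and Irf8, a transcription factor of cDC1, averaged 0.956 and 9.79, each with the 34 cells first. The 34 cells were thus low for antigen-presentation genes. Krt8 stood at 11.1 UMIs per 10000 in them against 0.0225 in the 81 cells, a contrast set by the choice of cells. Ptprc was detected in 5 of the 34 and in 61 of the 81. In 23 of the 34 cells Flt3 and H2-DMb2 were the 2 gate genes found. Their median depth was 18478.5 UMIs, against 6072 UMIs in the 81 cells.

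The part of tumor cells, doublets and free tumor RNA in these 34 cells was not tested. Cells with at least 3 of the 5 tumor-cell genes and no Ptprc numbered 245 in deleted libraries and 9472 in wild-type libraries, and among these 9717 keratin-detected cells H2-Aa had a UMI in 87.5%, H2-DMb2 in 9.78% and Flt3 in 1.95%. After every cell was thinned to 1000 UMIs, the share with at least 2 tumor-cell genes averaged 0% of gated cells in deleted libraries and 21.2% in wild-type libraries. In macrophages, taken as cells with 2 or more C1q genes and no Cd3 gene, the same thinned share was 0.560% in deleted libraries and 13.6% in wild-type libraries, and in Cd3-detected cells it was 0.366% and 3.12% in the same order. Without thinning, but over the same cells of at least 1000 UMIs, the share of gated cells was 1.32% in deleted libraries (1 of 19 cells in library 8 and 0 in the others) and 55.8% in wild-type libraries. Below, the 115 cells are called gated cells, and results are also given for the 81 gated cells with fewer than 2 tumor-cell genes. These numbered 13, 4, 16 and 19 in deleted libraries 3, 4, 7 and 8, and 1, 2, 10 and 16 in wild-type libraries 1, 2, 5 and 6.

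**Figure D1:**
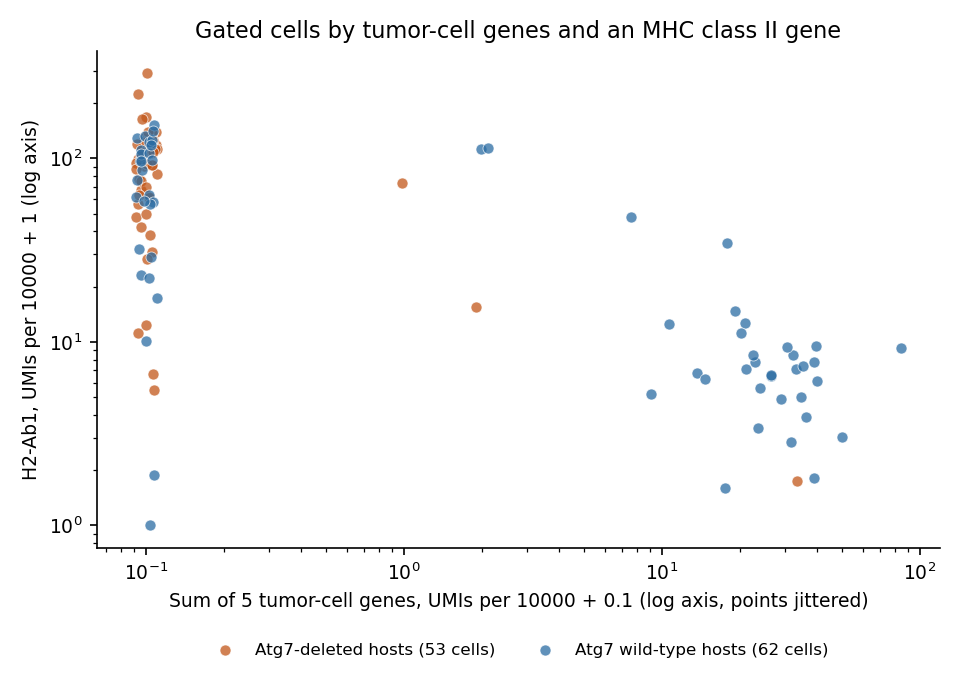
Each point is 1 of the 115 gated cells, with the summed level of the 5 tumor-cell genes (UMIs per 10000 + 0.1, log axis, points jittered) against the level of H2-Ab1 (UMIs per 10000 + 1, log axis), orange for deleted and blue for wild-type hosts. Most cells at the right, high for tumor-cell genes, are low for H2-Ab1, and 33 of the 34 cells with at least 2 tumor-cell genes are from wild-type hosts.

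The first comparison asked whether these cells were more or less frequent in tumors of deleted hosts. Gated cells made up 0.329%, 0.163%, 1.66% and 0.40% of all cells in deleted libraries 3, 4, 7 and 8, and 0.131%, 0.127%, 0.412% and 0.535% in wild-type libraries 1, 2, 5 and 6. Deleted library 7, the smallest with 964 cells, stood above every other library, with an exact 95% binomial interval of 0.952 to 2.68% that covers counting error alone. The rest of the 2 groups overlapped. The means were 0.638 ± 0.688% in deleted and 0.301 ± 0.205% in wild-type libraries (SD, n = 4 each; difference 0.337 percentage points, two-sided exact permutation p = 0.514, Benjamini-Hochberg adjusted p = 0.771 over 3 shares). Without deleted library 7 the difference was -0.00363. With every cell thinned to 1000 UMIs the means were 0.206 ± 0.147% in deleted and 0.0433 ± 0.0351% in wild-type libraries (SD, n = 4 each), a difference of 0.162 percentage points with an exact permutation p of 0.0571, or 0.171 once adjusted. Within libraries 1 to 4 the means were 0.246% in deleted and 0.129% in wild-type libraries, and within libraries 5 to 8 they were 1.03% and 0.473% in the same order (2 libraries each, exact permutation within the sets p = 0.278, smallest possible 0.0556).

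When the cells with at least 2 tumor-cell genes were left out, the share was 0.329%, 0.163%, 1.66% and 0.380% in deleted libraries, and 0.0436%, 0.0634%, 0.165% and 0.285% in wild-type libraries. Deleted library 4 lay among the wild-type values and the other 3 lay above them. The means were 0.633 ± 0.691% and 0.139 ± 0.111% with deleted libraries first (SD, n = 4 each; exact permutation p = 0.0857, and 0.257 once adjusted). Cells with at least 3 of the 6 genes made up 0.228%, 0.122%, 0.726% and 0.20% of deleted libraries, and 0.0436%, 0.0317%, 0.0659% and 0.0535% of wild-type libraries. Here the genotypes did not overlap, and the means were 0.319 ± 0.275% in deleted and 0.0487 ± 0.0145% in wild-type libraries (SD, n = 4 each; exact permutation p = 0.0286, the smallest possible, and 0.0857 once adjusted for the 3 shares). As a share of Ptprc cells such cells were 0.411%, 0.198%, 2.22% and 0.266% in deleted libraries, and 0.190%, 0%, 0.453% and 0.0942% in wild-type libraries, where the genotypes overlapped (exact permutation p = 0.2, and 0.3 once adjusted). The shares of all cells rest on 3 to 10 cells per deleted library and 1 to 4 cells per wild-type library. All are shares of what was encapsulated, and the keratin-detected cells that fill much of the wild-type libraries enter the denominator.

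**Figure D2:**
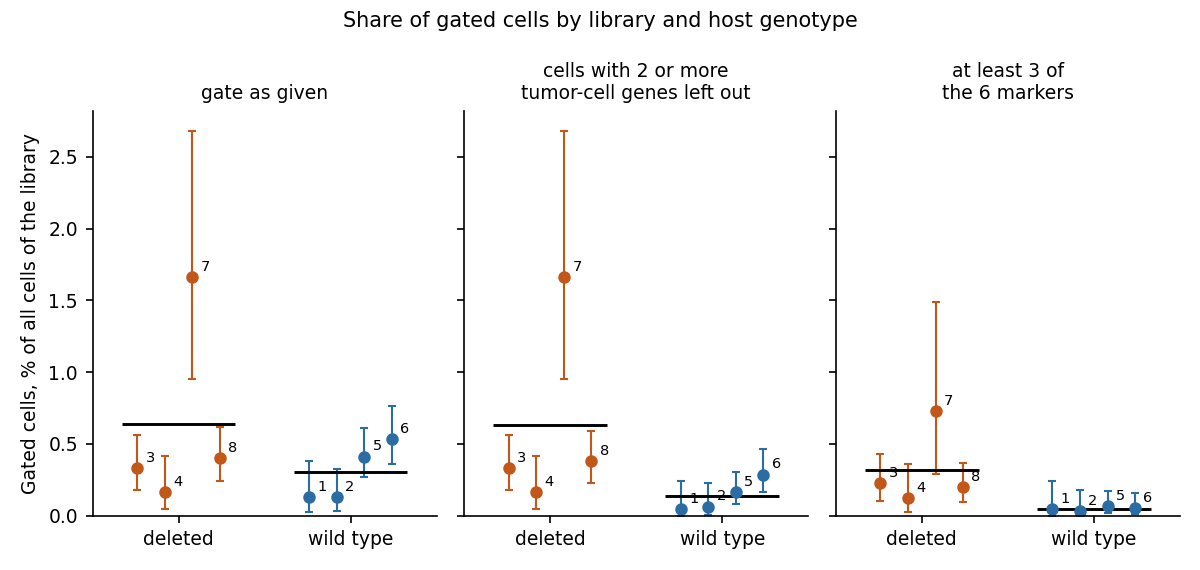
Share of gated cells among all cells of a library (percent) for the gate as given, without cells with 2 or more tumor-cell genes, and with at least 3 of the 6 marker genes, each with deleted libraries (3, 4, 7, 8) at the left and wild-type libraries (1, 2, 5, 6) at the right. Bars are exact 95% binomial intervals and black lines are means, and the groups separate in the right panel, at 0.122 to 0.726% against 0.0317 to 0.0659%.

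Among cells with a Ptprc UMI, gated cells made up 0.514%, 0.198%, 4.11% and 0.533% in deleted libraries and 0.380%, 0.0767%, 1.13% and 1.41% in wild-type libraries. The groups overlapped (1.34 ± 1.86% against 0.75 ± 0.626%, deleted first, SD, n = 4 each; by exact permutation p was 0.771 before and after adjustment), and the difference of 0.589 percentage points was -0.335 without deleted library 7 and 0.0671 after thinning. A further 99 cells met every condition but had a Ccr7 UMI, 61 from deleted and 38 from wild-type hosts. These were 64.9%, 55.6%, 27.3% and 56.5% of all cells that passed with Ccr7 ignored in deleted libraries, and 25.0%, 66.7%, 32.4% and 36.2% in wild-type libraries. The genotypes overlapped (51.1 ± 16.4% against 40.1 ± 18.3%, deleted first, SD, n = 4 each; by exact permutation p was 0.429, and 0.771 after adjustment). The difference of 11.0 percentage points became -3.59 without cells with at least 2 tumor-cell genes, but 15.2 without cells with any of the 5. After thinning it was -19.9, where 1 wild-type library had no such cell. Another 40 cells had a C1q UMI in place of Ccr7, 35 from deleted hosts, of which 28 were in deleted library 3, and 5 from wild-type hosts.

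The 81 gated cells with fewer than 2 tumor-cell genes held both conventional types. Xcr1 or Clec9a was detected in 51 of them, Cd209a without either in 23, and none of the 3 genes in 7. Of the 51 cells 8 also had Cd209a, 2 from deleted and 6 from wild-type hosts. Beyond the genes used to sort them, the 51 cells had Irf8 at 12.4, Naaa at 11.1, Wdfy4 at 5.72, Cd24a at 5.66, Itgae at 2.55, Cadm1 at 1.79 and Batf3 at 1.22 UMIs per 10000. Wdfy4 is needed for cross-presentation in cDC1, Batf3 and Irf8 are the transcription factors on which cDC1 depend, and Itgae encodes the integrin chain CD103. In the 23 Cd209a cells these genes were lower, with Irf8 at 4.32, Naaa at 3.73, Wdfy4 at 0.779, Batf3 at 0.707 and both Itgae and Cadm1 at 0. The 23 cells were instead high for Il1b, an inflammatory cytokine, at 22.0 against 7.31 in the 51 cells. They were also high for the lectin gene Mgl2 (4.56 against 1.14), Clec10a (2.89 against 0.559) and the lysozyme gene Lyz2 (7.97 against 4.25), each with the 23 cells first. Cst3 averaged 31.3 in the 23 cells and 167 in the 51 cells. The remaining 7 cells had Cst3 at 170, Zbtb46 at 1.39, and Irf4, a transcription factor of cDC2, at 2.51. Since the sorting genes chose these cells, the differences are given without a test.

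**Figure D3:**
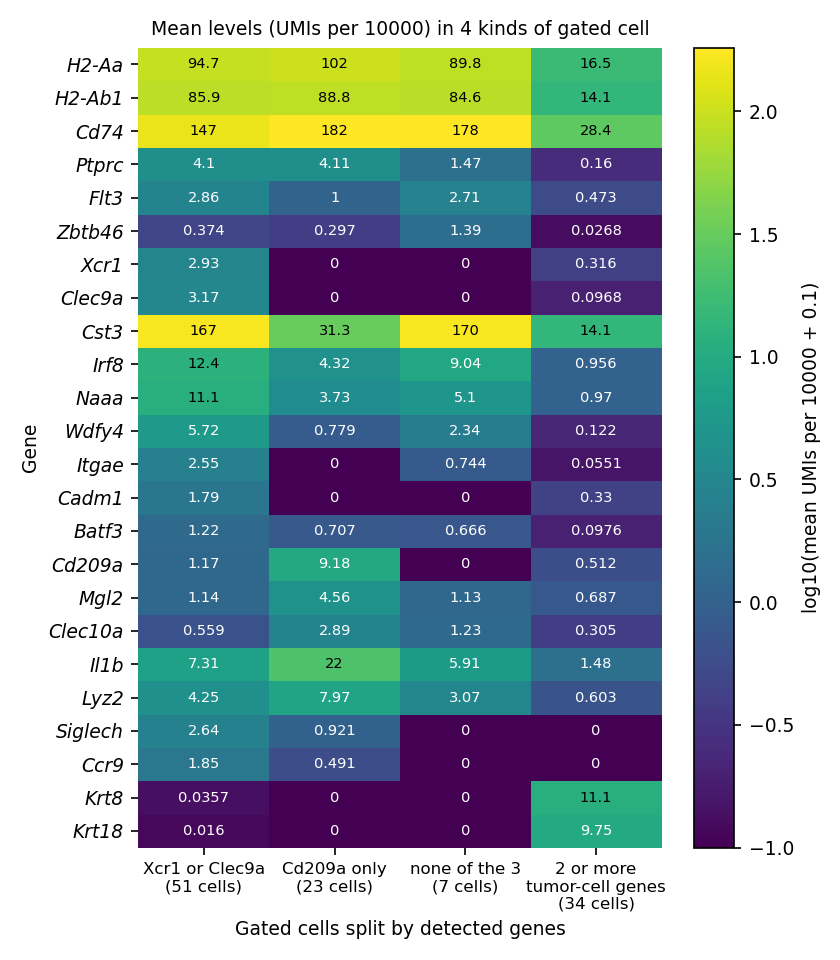
Mean level (UMIs per 10000, printed in each cell, color on a log10 scale) of 24 genes in 4 kinds of gated cell: 51 with Xcr1 or Clec9a, 23 with Cd209a only, 7 with none of the 3, and 34 with at least 2 tumor-cell genes. The first column is high for Irf8, Naaa and Wdfy4, the second for Cd209a and Il1b, and the last for Krt8 and Krt18 with the lowest class II levels.

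The split between the types varied from library to library. Xcr1 or Clec9a marked 10 of 13, 2 of 4, 12 of 16 and 11 of 19 such cells in deleted libraries 3, 4, 7 and 8, and 1 of 1, 1 of 2, 9 of 10 and 5 of 16 in wild-type libraries 1, 2, 5 and 6. Wild-type library 6 was the lowest at 31.2% and wild-type library 5 was at 90.0%, so the wild-type libraries alone spanned the deleted ones. Cd209a without the other 2 marked 2, 1, 2 and 8 cells in deleted libraries and 0, 1, 1 and 8 in wild-type libraries. Of the 81 cells, 8 also had Siglech or Ccr9, genes of plasmacytoid dendritic cells, 1, 3 and 2 of them in deleted libraries 4, 7 and 8 and 2 in wild-type library 5. Of these 8, 7 are among the 51 cells with Xcr1 or Clec9a and enter their values, including 2 of the 9 such cells of wild-type library 5.

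The gene deleted in the hosts, Atg7, encodes an enzyme needed to attach LC3 to membranes and lies at 114643097 to 114860614 of chromosome 6 in mm10 (ENSMUSG00000030314). In gated cells with fewer than 2 tumor-cell genes its level in UMIs per 10000 was 0 in deleted libraries 3, 4, 7 and 8, and 0, 2.04, 0.113 and 0.0951 in wild-type libraries 1, 2, 5 and 6. A count of 0 allows up to 0.285, 0.668, 0.311 and 0.195 UMIs per 10000 in the 4 deleted libraries (3 UMIs per library, counting error only), so a difference from wild-type libraries 5 and 6 was not detectable at this depth. The kit tags the 5′ end of a transcript, which may lie outside the deleted part, and the few UMIs do not check the labels.

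The second comparison asked which genes differed between gated cells of the 2 hosts. Levels of each library were compared as log2(UMIs per 10000 + 0.5) with limma, the difference being deleted minus wild type, and Benjamini-Hochberg adjustment over all genes tested. With at least 20 gated cells required, 1 deleted library (8) and 2 wild-type libraries (5 and 6) entered. Of 9447 genes, 0 passed an adjusted p of 0.05 (0%), while 353 were higher (3.74%) and 286 lower (3.03%) at an unadjusted p under 0.05. The genes with the smallest p on the lower side were led by Cxcl2, a chemokine for neutrophils, at 1.55 in deleted library 8 and at 19.9 and 13.3 in wild-type libraries 5 and 6. Its log2 difference was -3.03 ± 0.45 (SE, limma adjusted p = 0.595). Krt8 followed at 0.442 in deleted library 8 against 8.00 and 5.17 in wild-type libraries, and Krt18 at 0.741 against 5.07 and 5.74. Cxcl1, Cald1, Crip2, Cd63, Fam162a, Rhoc and Cavin3 made up the 10 on this side. Krt8 and Krt18 are among the genes that mark the 34 cells described above, which are 1 of 20, 15 of 25 and 14 of 30 cells in these libraries.

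On the higher side the 10 genes with the smallest p were Qsox1, Klf2, Gm3839, Atf3, Gm16538, Ptgs2, Shtn1, Acp5, Hspa1a and Klk1, and none of them passed. Klf2, a transcription factor of resting leukocytes, was at 4.04 in deleted library 8 and at 0.53 and 0.748 in wild-type libraries 5 and 6 (log2 difference 2.00 ± 0.36 SE, limma adjusted p = 0.595). Ptgs2, the inducible enzyme of prostaglandin synthesis, was at 2.12 in deleted library 8 and at 0.172 and 0.340 in wild-type libraries. Atf3, a stress-induced transcription factor, was at 3.50 in deleted library 8 and at 0.560 and 0.629 in wild-type libraries. With all 8 libraries in this fit 14 of 7083 genes were higher (0.198%) and 64 lower (0.904%), from as few as 3 cells in a library. With 1 deleted library the spread is that of the wild-type pair, and the lone library is assumed to vary like them.

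Lowering the minimum to 10 cells, a choice made after the cell numbers were seen, brought in deleted libraries 3 and 7. Of 8311 genes 0 were then higher (0%) and 10 lower (0.120%) by limma, with 294 higher (3.54%) and 1136 lower (13.7%) at an unadjusted p under 0.05. The 10 lower genes were Krt8, Krt18, Cald1, Ly6c1, Wfdc2, Gbp2, Tm4sf1, Pdgfa, Cavin3 and Fst. Krt8, Krt18 and Wfdc2 are 3 of the 5 tumor-cell genes. The comparison was therefore repeated in gated cells with fewer than 2 tumor-cell genes, again with at least 10 cells, in deleted libraries 3, 7 and 8 and wild-type libraries 5 and 6. Summed levels of 8 malignant urothelial markers in these cells were 0 to 0.0429 in deleted libraries and 0 in both wild-type libraries. These 8 markers include the 5 tumor-cell genes by which cells were left out. The low sums were thus in part set by the choice of cells and are no separate check of it.

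In those cells 6 of 6814 genes passed (0.0881%), 2 of them higher (0.0294%) and 4 lower (0.0587%) in deleted hosts. The genes lower in deleted hosts were Cxcl10, Gbp2, Ly6a and Clec4e, and those higher were the heat-shock genes Hspa1a and Hspa1b. At an unadjusted p under 0.05, 231 genes were higher (3.39%) and 261 lower (3.83%), and the 3 deleted libraries lay wholly above the wild-type pair for 11.7% of genes and wholly below it for 10.7%. In mm10, Cxcl10 lies on chromosome 5 (92346638 to 92348889), Gbp2 on chromosome 3 (142620602 to 142638008), and Hspa1a on chromosome 17 (34969190 to 34972156). Cxcl10, a chemokine that draws CXCR3-bearing T cells and is induced by interferon, was at 0.176, 0.642 and 3.34 UMIs per 10000 in deleted libraries 3, 7 and 8, and at 21.4 and 10.5 in wild-type libraries 5 and 6. Both wild-type libraries were above the deleted ones, at 1.38 ± 1.71 (SD, n = 3) in deleted and 16.0 ± 7.72 (SD, n = 2) in wild-type libraries. The log2 difference was -3.43 ± 0.52 (SE, limma adjusted p = 1.56e-05). A few cells carried these levels. In wild-type library 5 the highest of 10 cells held 204 UMIs per 10000 and the mean of the others was 1.11, and in wild-type library 6 the highest of 16 held 131 and the mean of the others was 2.47. With the highest cell of each library left out, Cxcl10 differed by -1.14 and did not pass (limma adjusted p = 0.782). With logarithms averaged over cells it differed by -1.0 and did not pass (limma adjusted p = 0.225).

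Gbp2, a guanylate-binding protein induced by interferon gamma, was at 0.252, 0.258 and 0.486 UMIs per 10000 in deleted libraries 3, 7 and 8, and at 3.12 and 5.32 in wild-type libraries 5 and 6. The groups were well apart, at 0.332 ± 0.134 (SD, n = 3) in deleted and 4.22 ± 1.55 (SD, n = 2) in wild-type libraries, a log2 difference of -2.48 ± 0.46 (SE, limma adjusted p = 0.00130). Its UMIs were found in 2 of 13, 3 of 16 and 5 of 19 cells in deleted libraries, and in 3 of 10 and 11 of 16 cells in wild-type libraries. In wild-type library 5 the mean without its highest cell was 1.02. That cell, with 1813 UMIs of all genes, was also the highest of its library for Cxcl10. It held 1 UMI each of Clec9a and Cd209a, 0 of Naaa and Batf3, and UMIs of 4 monocyte markers. Gbp2 still passed with the highest cell of each library left out, at -2.03 (limma adjusted p = 0.0226), and with averaged logarithms, at -1.13 (limma adjusted p = 0.0206). The smaller libraries did not follow: deleted library 4, with 4 cells, had 3.19, and wild-type libraries 1 and 2, with 1 and 2 cells, had 0 and 0.656. With all 8 libraries in the fit Gbp2 differed by -0.64 and did not pass (limma adjusted p = 0.901).

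Ly6a, which encodes the surface protein Sca-1 and is also induced by interferon, was at 0.464, 1.39 and 7.55 UMIs per 10000 in deleted libraries 3, 7 and 8, and at 8.87 and 17.9 in wild-type libraries 5 and 6. Deleted library 8 came close to wild-type library 5, and the log2 difference was -2.42 ± 0.54 (SE, limma adjusted p = 0.0325). Ly6a passed without the highest cell of each library, at -2.54 (limma adjusted p = 0.00250). It did not pass with averaged logarithms, summed UMIs, a pseudocount of 0.1, a term for the barcode set or Siglech and Ccr9 cells left out (limma adjusted p = 0.0738, 0.337, 0.162, 0.327 and 0.126 in that order). Clec4e, which encodes the pattern-recognition lectin Mincle, was at 0, 0.148 and 0.452 in deleted libraries and at 2.91 and 1.58 in wild-type libraries (log2 difference -1.98 ± 0.45 SE, limma adjusted p = 0.0403). In wild-type library 5 all of its UMIs came from 1 cell of 10, which also held UMIs of Siglech, Ccr9 and 4 neutrophil markers. Clec4e differed by -0.77 without the highest cell of each library and by -0.54 without Siglech and Ccr9 cells, and passed in neither (limma adjusted p = 0.782 and 0.842). Neutrophil markers summed to 8.54 UMIs per 10000 in wild-type library 5, to 0 in wild-type library 6 and to at most 0.142 in the deleted libraries, and their part in the Clec4e result was not tested.

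Hspa1a and Hspa1b encode near-identical inducible HSP70 chaperones, so reads may be split between them in an uncertain way. Hspa1a was at 11.5, 2.95 and 1.05 UMIs per 10000 in deleted libraries 3, 7 and 8, and at 0 and 0.130 in wild-type libraries 5 and 6. Every deleted library was higher than both wild-type libraries, with deleted library 3 far above the rest (log2 difference 2.83 ± 0.50 SE, limma adjusted p = 0.000671). Hspa1b was at 11.8, 1.34 and 0.175 in deleted libraries and at 0 in both wild-type libraries (log2 difference 2.31 ± 0.53 SE, limma adjusted p = 0.0414). Hspa1a had UMIs in 8 of 13, 5 of 16 and 3 of 19 cells of the deleted libraries, and in 0 of 10 and 1 of 16 cells of the wild-type libraries. With a term for the barcode set both calls were lost, with Hspa1a at 2.04 (limma adjusted p = 0.109) and Hspa1b at 1.16 (limma adjusted p = 0.989). Deleted library 3, the highest for both genes, is the only library of this fit outside libraries 5 to 8. The term therefore takes it up whole, and these values compare deleted libraries 7 and 8 with wild-type libraries 5 and 6. The 6 fibroblast markers summed to 7.31, 8.13 and 0.0929 UMIs per 10000 in deleted libraries 3, 7 and 8, and to 0.182 and 0 in wild-type libraries 5 and 6, and their part in the result was not tested. In the smaller libraries Hspa1a was at 0.213 in deleted library 4 and at 0 and 0.875 in wild-type libraries 1 and 2. Immediate early genes, which like heat-shock genes respond to tissue dissociation, had a positive difference in 19 of 22 cases in the same cells. Over all genes 3499 of 6814 were positive. Of the 22, 3 lay wholly above and 2 wholly below the wild-type libraries, beside 11.7% and 10.7% over all genes. The part of dissociation was not tested. In C1q-detected macrophages of the same libraries, Hspa1a was at 5.12, 3.04 and 1.79 in deleted and at 0.407 and 1.83 in wild-type libraries.

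**Figure D4:**
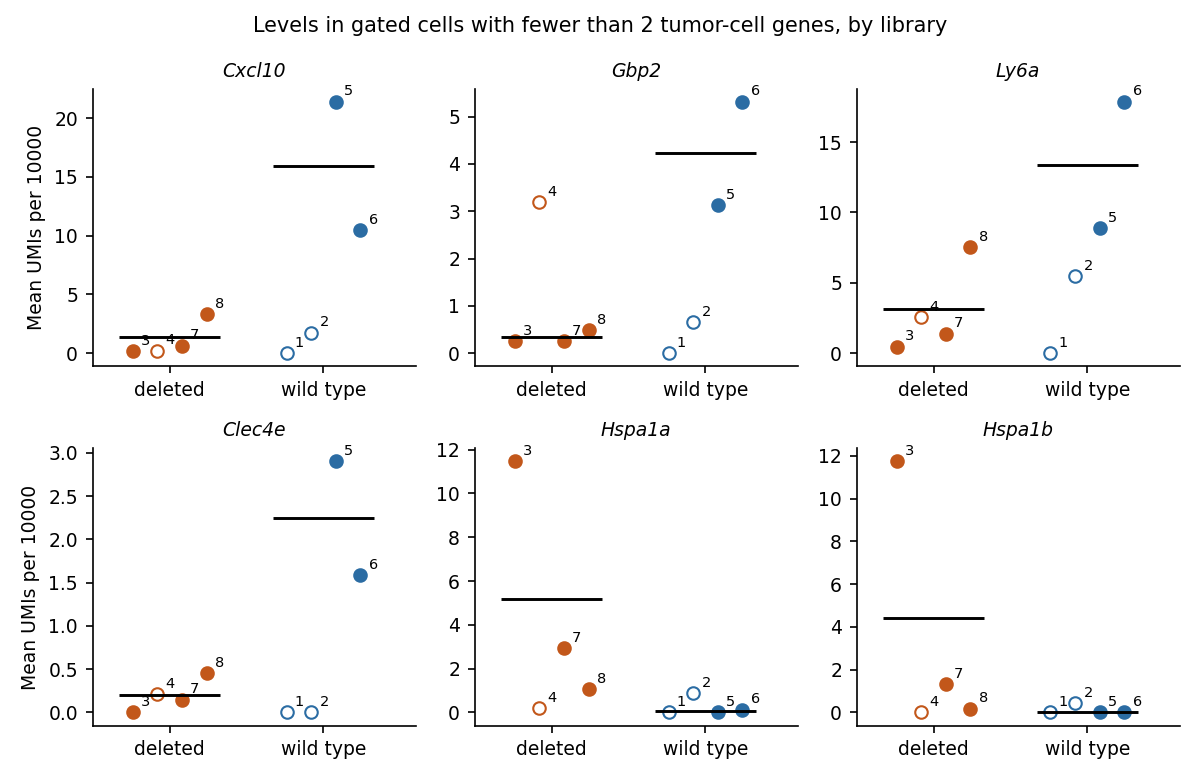
Mean level (UMIs per 10000) of the 6 genes that passed, in gated cells with fewer than 2 tumor-cell genes, for deleted libraries (3, 4, 7, 8) at the left and wild-type libraries (1, 2, 5, 6) at the right of each panel. Filled points are libraries with at least 10 such cells, open points are libraries with 1 to 4 such cells, and lines are means of the filled points, which are lower in deleted libraries for Cxcl10, Gbp2, Ly6a and Clec4e and higher for Hspa1a and Hspa1b.

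These 6 calls depended on single libraries. Without wild-type library 5, wild-type library 6 or deleted library 7, 0 genes passed in either direction. Without deleted library 3, 3 genes passed as higher and 3 as lower, and without deleted library 8, 3 and 4. Cxcl10 and Gbp2 passed in both of these fits (limma adjusted p = 1.59e-05 and 0.00746 without library 3, 0.000192 and 0.0317 without library 8). The fit without library 3 holds libraries 5 to 8 alone and is thus a comparison within 1 barcode set. With a term for the barcode set, Cxcl10 and Gbp2 passed and the other 4 did not, Clec4e having a limma adjusted p of 0.287. Deleted library 3 is the only library of this fit outside libraries 5 to 8, so the term takes it up whole. The difference is then the same as without library 3, and the term is not a separate check of a batch. Hspa1a had a limma adjusted p of 0.0626 without library 3. With all 8 libraries, 0 genes were lower (0%) and 1 was higher (0.0181% of 5528), which was Naaa. At an unadjusted p under 0.05 the same limma fit had 240 higher (4.34%) and 62 lower (1.12%).

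The interferon-response genes were described as 2 lists, with 0 genes shared between them. Of 21 genes of the type I interferon list 19 passed the filter on low values, and 0 rose and 0 fell by adjusted p. The sign was negative for 17 and positive for 2 of them, and 9 lay below the wild-type libraries in every deleted library, with a median log2 difference of -0.78. Over all 6814 genes tested 48.6% were negative, 10.7% lay wholly below and the median was 0.01. Isg15, a ubiquitin-like protein, was at 0.282, 0.746 and 1.66 UMIs per 10000 in deleted libraries 3, 7 and 8, and at 1.35 and 12.9 in wild-type libraries 5 and 6 (log2 difference -1.96 ± 0.52 SE, limma adjusted p = 0.128). The groups overlapped for Isg15. Irf7, the transcription factor that amplifies the type I response, was at 0.151, 0.524 and 1.66 in deleted libraries and at 4.44 and 2.86 in wild-type libraries without overlap (log2 difference -1.85, limma adjusted p = 0.117).

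Of 21 genes of the interferon gamma list 18 passed the filter, 0 rose, and 2 fell, which were Cxcl10 and Gbp2, beside 0.0587% called lower over all genes. The sign was negative for 16 of the 18, and 9 lay below without overlap, beside 10.7% over all genes, with a median log2 difference of -0.91. Cxcl9, another CXCR3 ligand, was at 0.638, 0.630 and 0.434 in deleted libraries 3, 7 and 8, and at 4.03 and 2.95 in wild-type libraries 5 and 6, but deleted library 4 had 6.60 and the difference did not pass (log2 difference -1.89 ± 0.46 SE, limma adjusted p = 0.0754). Irf1, a transcription factor downstream of the interferon gamma receptor, was at 0.556, 1.28 and 1.29 in deleted libraries and at 3.08 and 4.40 in wild-type libraries (log2 difference -1.49, limma adjusted p = 0.301). Psmb9, an immunoproteasome subunit that interferon gamma raises, differed by -0.07. Across all 8 libraries the medians of both lists were smaller, at -0.40 for type I and -0.35 for interferon gamma, beside 0.13 over the 5528 genes tested. In that fit 10 of 13 type I genes and 10 of 16 interferon gamma genes were negative, 0 in either list lay below without overlap, and 0 passed. Over all 5528 genes 2084 were negative and only 35 lay below without overlap, so the 0 in these short lists says little.

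**Figure D5:**
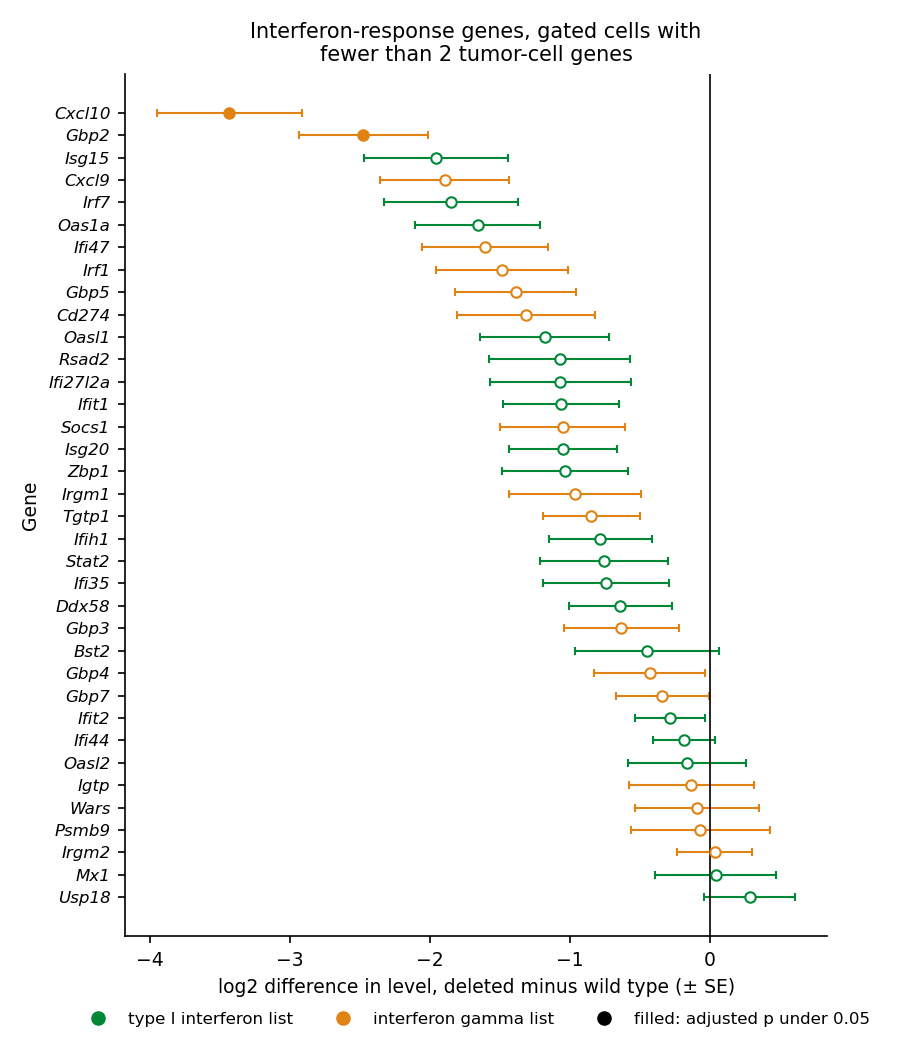
Log2 difference (deleted minus wild type, ± SE) of 36 of the 37 interferon-response genes that passed the filter, in gated cells with fewer than 2 tumor-cell genes of deleted libraries 3, 7 and 8 and wild-type libraries 5 and 6, with the type I list in green and the interferon gamma list in orange. Filled points have a limma adjusted p under 0.05, and 33 of the 36 lie left of 0.

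Monocyte markers moved with these genes in part: 8 of them summed to 7.40 to 26.4 UMIs per 10000 in deleted libraries and to 24.0 to 35.1 in wild-type libraries, with Ly6c2 at 0.156, 2.12 and 2.61 in deleted and at 8.26 and 3.33 in wild-type libraries. Macrophage markers, with C1q at 0 by the gate, summed to 0.766 to 4.09 in deleted and to 0.545 to 5.82 in wild-type libraries. The 8 plasmacytoid markers summed to 2.07 to 18.5 in deleted and to 6.96 to 30.6 in wild-type libraries. The part of such cells in the result was not tested. The mix of the 2 conventional types differed between libraries too, so the called genes were also counted within each class of the split. The class with Xcr1 or Clec9a is not a pure type, since 2 of its 35 deleted and 6 of its 16 wild-type cells also had Cd209a. Among cells with Xcr1 or Clec9a, Gbp2 had a UMI in 5 of 35 from deleted and 7 of 16 from wild-type hosts, and Cxcl10 likewise in 5 of 35 and 7 of 16. Ly6a had a UMI in 6 of 35 from deleted and 9 of 16 from wild-type hosts, and Hspa1a in 12 of 35 and 1 of 16. Clec4e had a UMI in 0 of 35 from deleted and 3 of 16 from wild-type hosts, and Hspa1b in 8 of 35 and 1 of 16. Among cells with Cd209a only, Gbp2 had a UMI in 5 of 13 from deleted and 7 of 10 from wild-type hosts, Cxcl10 in 6 of 13 and 6 of 10, and Ly6a in 9 of 13 and 6 of 10. In the same cells Clec4e had a UMI in 3 of 13 from deleted and 3 of 10 from wild-type hosts, Hspa1a in 2 of 13 and 1 of 10, and Hspa1b in 3 of 13 and 0 of 10. Cells of a library are not replicates, so these counts carry no test.

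The genes that define cDC1 were mostly on the higher side in deleted hosts without passing. Of 16 genes 15 passed the filter, 13 of them not used by the gate. Of the 13, 12 were positive with a median log2 difference of 0.73, while 0 rose and 0 fell by adjusted p. Over all 6814 genes tested 3499 were positive and the median was 0.01. In every deleted library 5 of the 13 lay above the wild-type libraries, beside 11.7% over all genes. Itgae was at 4.34, 2.48 and 1.12 UMIs per 10000 in deleted libraries 3, 7 and 8, and at 0.601 and 0.0682 in wild-type libraries 5 and 6 (log2 difference 1.85 ± 0.48 SE, limma adjusted p = 0.117). Naaa, a lysosomal amidase abundant in cDC1, was at 15.5, 12.3 and 8.20 in deleted and at 5.29 and 2.87 in wild-type libraries (log2 difference 1.45 ± 0.51 SE, limma adjusted p = 0.452). Neither gene overlapped between these libraries. With all 8 libraries, Naaa was also at 9.18 in deleted library 4 and at 0 in wild-type libraries 1 and 2, and it passed there (log2 difference 2.95 ± 0.59 SE, limma adjusted p = 0.0182). The 2 values of 0 rest on 1 and 2 cells, where a count of 0 allows up to 5.47 and 1.19 UMIs per 10000. With cells of 2 or more tumor-cell genes kept, the difference over all 8 libraries was 1.88 (limma adjusted p = 0.00727). The cells so kept are 33 from wild-type and 1 from deleted hosts. With them Naaa was at 2.23 and 1.74 in wild-type libraries 5 and 6, and their part in that difference was not tested. Wild-type library 6, where 5 of 16 cells had Xcr1 or Clec9a, was the lowest of the 5 libraries for both genes. Within cells with Xcr1 or Clec9a, Itgae had a UMI in 25 of 35 from deleted and 4 of 16 from wild-type hosts, at 5.12, 3.30 and 1.93 in deleted libraries 3, 7 and 8 and at 0.668 and 0.218 in wild-type libraries 5 and 6. Cd209a was also detected in 2 of these 35 and 6 of these 16 cells, among them 4 of the 5 in wild-type library 6. The class is thus not a pure type, and the part of this mix was not tested. Among the 23 cells with Cd209a only, 0 had an Itgae UMI. Of 17 cDC2 genes 14 passed the filter, 13 of them not used by the gate, with 8 positive and 5 negative, a median of 0.14, and 0 passing the test.

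No gene of antigen presentation passed the test. Of 15 MHC class II genes 11 were tested beyond the gate genes, 5 positive and 6 negative, with a median log2 difference of -0.06 and 0 passing. H2-Ab1 was at 143, 75.5 and 76.8 UMIs per 10000 in deleted libraries 3, 7 and 8, and at 81.6 and 71.7 in wild-type libraries 5 and 6. Cd74 was at 103, 137 and 197 in deleted and at 154 and 231 in wild-type libraries. The groups overlapped for H2-Ab1 and Cd74. The 18 genes of MHC class I and cross-presentation were split 9 to 9 with a median of -0.00. Among 17 costimulators and checkpoint ligands 14 passed the filter, with 6 positive, 8 negative, a median of -0.14 and 0 passing. Cd86, a ligand of CD28, was at 1.63, 1.4 and 1.25 in deleted and at 2.02 and 2.84 in wild-type libraries (log2 difference -0.60, limma adjusted p = 0.823). Cd274, which encodes PD-L1, was at 0.481, 2.64 and 1.52 in deleted and at 6.27 and 2.58 in wild-type libraries (log2 difference -1.31 ± 0.49 SE, limma adjusted p = 0.571).

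Of 26 cytokines and chemokines 14 passed the filter, 4 positive and 10 negative with a median of -1.12, and Cxcl10 alone fell, beside 0.0587% called lower over all genes. Il1b was at 5.80, 3.55 and 17.6 UMIs per 10000 in deleted libraries 3, 7 and 8, and at 31.0 and 7.17 in wild-type libraries 5 and 6, an overlap. Ccl4, a chemokine for T cells and monocytes, was at 4.35, 0.586 and 1.83 in deleted and at 32.2 and 1.22 in wild-type libraries, so wild-type library 5 alone was high. Il12b, the cytokine subunit through which dendritic cells drive interferon gamma in T cells, was at 0 to 0.175 in deleted and at 0 in both wild-type libraries and did not reach the filter. Of 23 innate sensors 13 passed the filter, with 8 positive and 5 negative, a median of 0.15 and Clec4e as the 1 that fell, beside the same 0.0587% over all genes. Tlr3, which senses double-stranded RNA in cDC1, was at 1.27, 0.302 and 0.178 in deleted and at 0.207 and 0 in wild-type libraries (log2 difference 0.73, limma adjusted p = 0.735).

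The autophagy list held 23 genes, of which 18 passed the filter and 0 passed the test, with 4 positive and 14 negative and a median log2 difference of -0.18. Sqstm1, whose protein p62 is an autophagy receptor and substrate, was at 2.27, 3.97 and 3.54 UMIs per 10000 in deleted libraries 3, 7 and 8, and at 5.31 and 9.37 in wild-type libraries 5 and 6 (log2 difference -1.04 ± 0.50 SE, limma adjusted p = 0.675). Gabarap, an LC3 relative, was at 5.28, 3.20 and 5.83 in deleted and at 5.58 and 13.9 in wild-type libraries (log2 difference -0.87, limma adjusted p = 0.742). Atg3, which acts on LC3 in the step after Atg7, was at 1.94, 1.34 and 1.10 in deleted and at 0.301 and 1.06 in wild-type libraries (log2 difference 0.79, limma adjusted p = 0.742). None of these is a measure of autophagic flux.

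Of 12 heat-shock genes 11 passed the filter, 9 were positive, and the 2 that rose were Hspa1a and Hspa1b, with a median of 0.77. Over all 6814 genes tested 3499 were positive and 0.0294% were called higher. Hspa8, the constitutive HSP70, was at 23.0, 14.4 and 12.8 UMIs per 10000 in deleted libraries 3, 7 and 8, and at 5.13 and 12.4 in wild-type libraries 5 and 6 (log2 difference 0.97, limma adjusted p = 0.702). All 22 immediate early genes passed the filter, with 19 positive, 3 negative, a median of 0.29 and 0 passing the test. Fos was at 9.58, 2.21 and 6.74 in deleted and at 2.64 and 1.64 in wild-type libraries, and Klf4 at 4.86, 2.48 and 1.02 in deleted against 0.351 and 1.01 in wild-type libraries, though wild-type library 2, with 2 cells, had 18.7 for Fos and 8.45 for Klf4. Of 20 cell-cycle genes 16 passed the filter, with 13 positive and a median of 0.34. Of 23 lysosomal genes and proteases 20 passed, with 14 negative and a median of -0.27. For the 21 genes of glycolysis and hypoxia, 19 passed, 11 were positive and the median was 0.06. In these 3 lists and in the 15 NF-kB genes (median -0.12) 0 genes passed the test.

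The last comparison asked whether the genotype difference in gated cells was unlike that in C1q-detected macrophages of the same tumors, by fitting the within-library log2 difference between both cell types. With at least 20 gated cells, 0 of 9447 genes passed (0%) and 467 had an unadjusted p under 0.05 (4.94%). In gated cells with fewer than 2 tumor-cell genes, 0 of 6814 passed (0%) and 507 had an unadjusted p under 0.05 (7.44%). Cxcl10 in macrophages was at 2.26, 2.39 and 2.04 UMIs per 10000 in deleted libraries 3, 7 and 8, and at 2.75 and 8.02 in wild-type libraries 5 and 6. The difference of the log2 differences, gated cells minus macrophages, was -2.49 ± 0.67 (SE, limma adjusted p = 0.496). Gbp2 in macrophages was at 3.98, 7.18 and 2.32 in deleted and at 6.11 and 6.42 in wild-type libraries, an overlap, and its difference of differences was -1.92 ± 0.56 (SE, limma adjusted p = 0.501).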

How the data were processed

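Single-cell RNA was measured in 8 tumor libraries, 4 per host genotype. Cell Ranger 2.1, Seurat 3.0 and the mm10 build are named per the submitters' processing notes, and no further step is stated there. Each deposited value is a natural log, of 1 plus the gene's UMIs per 10000 UMIs in that cell, as shown by the values: undoing the log gives cells that sum to 10000. Whole UMIs were recovered within 0.01 for 100% of values. The deposited cells had 201 to 5000 genes and under 20% mitochondrial UMIs. Doublets were not called here.

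The members and gene lists were chosen with earlier results of these data known. Cells were gated with Python 3.11.15 and numpy 2.4.6, and shares were compared by two-sided exact permutation over libraries (scipy 1.17.1). A count model had been foreseen for counts. The deposited unit being logarithmic, log2(mean UMIs per 10000 + 0.5) per library was fitted by limma 3.58.1 (R 4.3.3, trended prior, Benjamini-Hochberg adjustment) in libraries with at least 20 gated cells. The filter on low values asked for a UMI in 10% of cells in no fewer libraries than the smaller genotype group has. Genes were named if they belonged to the gate, were Atg7, passed 0.05 (filled up by p to 10 a direction) or were high members of the lists; some others were named after their values were seen. The fits with at least 10 cells and without tumor-gene cells were added once cell counts were known. The fit was tested on simulated data in which all cells of a library had the same profile apart from depth and counting error. Levels carried by single cells, as for Cxcl10, were not simulated. The values of 1 list member are not reported here; the counts and medians of its list include it. Coordinates come from the GENCODE annotation of mm10.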

Additional observations from a re-analysis of the deposited data

Results flagged for a closer look

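In deleted hosts, library 7 stood apart from the other 3 for the share of gated cells: 1.66% of all cells, against 0.329%, 0.163% and 0.40% in libraries 3, 4 and 8, and 4.11% of cells with a Ptprc UMI, against 0.514%, 0.198% and 0.533%. Its distance to the nearest other library took up 0.842 and 0.915 of the whole range, above Dixon's limit for 4 libraries. The share of gated cells with at least 2 tumor-cell genes was 5.0% in deleted library 8, which is 1 of 20 cells, and 0% in the other 3. With those 3 tied at 0%, any other value takes up the whole range, so this flag was raised by 1 cell. Of 28 such groups of libraries examined, chance alone sets apart about 5%, a rate that does not cover tied values. Deleted library 7 is the smallest library, with 964 cells, and its part in the higher mean share is given by the value without it, -0.00363 percentage points.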

How the results depend on the processing

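No paired analysis was possible because each library has a number of its own and the genotypes share none. A term for the barcode set took its place where it could be fitted. In the gene fits with at least 10 cells this term takes up deleted library 3 alone, so they compare libraries 5 to 8. The fit without deleted library 3 rests on the same difference, and both are among the 14 fits counted below. The share of gated cells differed by -0.00363 to 0.495 percentage points (deleted minus wild type) when each library was left out in turn, the share among Ptprc cells by -0.335 to 0.970, and both turned negative without deleted library 7. The share with Ccr7 differed by 5.96 to 19.9 in the same way and by -19.9 after thinning. It differed by -3.59 without cells with 2 or more tumor-cell genes. Without cells with any of the 5 it differed by 15.2, a cutoff that was not planned. The genes called in gated cells, 0 in each direction, became 20 higher and 50 lower with a detection filter of 20%, 14 and 64 with all libraries, 0 and 10 with at least 10 cells, 4 and 25 when the barcode set was added to that, and 1 and 2 with at least 8 cells and without Siglech, Ccr9 or tumor-gene cells. From the 2 higher and 4 lower genes without tumor-gene cells, the barcode set gave 3 higher, with neither Hspa1a nor Hspa1b among them, and 2 lower, averaged logarithms 3 higher and 1 lower, and summed UMIs, a pseudocount of 0.1 and leaving out the highest cell each 1 higher and 2 lower, no detection filter gave 2 higher and 8 lower, all libraries 1 and 0, and leaving out 1 library 0 to 3 higher and 0 to 4 lower. Of 14 such fits, Gbp2 passed in 10, Cxcl10 and Hspa1a in 9, Ly6a in 6 and Clec4e in 5, and Hspa1b in 5 of 12. Differences that changed sign were those of Atf3 (-0.10 with all libraries, -0.51 with tumor-gene cells left out as well), Cd63 (0.50, 0.37 and 0.55 in 3 fits without tumor-gene cells), Cxcl1 (0.65 and 0.73) and Cxcl2 (0.038) in such fits, and Cd274 (0.39 with all libraries); the cause was not tested. Among 34 genes followed, 5 had such a change. A minimum of 40 cells, thinned cells, 3 of 6 markers, tumor-gene cells left out at 20 cells, and fits without 1 library or with a barcode term at 20 cells left too few libraries and were not run. With 1 to 30 gated cells in a library, low genes rest on single UMIs.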
